A study of Mus musculus with 8 samples.

Results

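The genes described here are the 2 genes that encode the histone variant H3.3, H3f3a and H3f3b, and 8 genes for chaperones that carry or place H3.3. These are Hira, Ubn1, Ubn2, Cabin1, Asf1a, Asf1b, Atrx and Daxx. They were chosen by name and function, and all 10 were found among the 22367 protein-coding genes of the mm9 annotation on chromosomes 1 to 19, X and Y. For each gene, H3.3-HA peaks were collected in a window that opens 10 kb before the transcription start (TSS) and closes 3 kb past the gene end. H3.3-HA native ChIP-seq was done on H3.3-HA tagged wild type mouse embryonic stem cells (mESCs, line W9.5, WT) and on H3.3-HA tagged mESCs without HIRA (Hira-null, line Clone 104, a single clone). Both genotypes were taken undifferentiated, at day 0, in medium with LIF, and at day 15 of differentiation towards cardiomyocytes through hanging drops and plated embryoid bodies. WT cells carry the tag as well, and the sources used here state neither the H3.3 gene or construct that holds it nor the part of Hira that was altered. No sorting of the day 15 cells is described, so cells of several types may be in those dishes. A single ChIP library with its input was made per condition, so no difference between conditions could be tested, and each statement below compares deposited peak lists.

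H3.3 differs from the replication-coupled H3 histones by a few residues and enters chromatin independently of DNA replication, throughout the cell cycle. The HIRA complex, with its subunits UBN1 or UBN2 and CABIN1, places H3.3 at active genes and regulatory elements, and ASF1A hands it the H3.3-H4 dimer. DAXX is the H3.3 chaperone of a separate route and works with the SNF2-type remodeler ATRX at telomeres, pericentric repeats and silenced retroelements. H3f3a and H3f3b encode the same protein from different coding sequences.

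The peak lists held 22730 peaks in WT and 17706 in Hira-null cells at day 0, and 27272 and 7332 at day 15. The lists give a position and a peak caller score and hold no read counts, so read depth is unknown and the number of peaks also carries it. WT peaks were unevenly spread over chromosomes. On chromosome 11, which holds H3f3b, the density of WT peaks per Mb divided by that over the remaining autosomes was 2.83 at day 0 and 5.09 at day 15. On chromosome 8, with Asf1b, the ratios were 1.41 and 2.56, and on the X chromosome, with Atrx, 0.103 and 0.0131. In Hira-null lists chromosomes 8 and 11 had ratios from 0.73 to 1.18. Of 8 pluripotency markers, 7 had a WT day 0 peak, 4 a Hira-null day 0 peak, 1 a WT day 15 peak and 1 a Hira-null day 15 peak. Of 8 cardiomyocyte markers only Ryr2 had a peak in any list, while Myh6, Myh7, Tnnt2 and Nkx2-5 had none. Of 4 smooth muscle markers, 0 had a WT day 0 peak, 1 a Hira-null day 0 peak, 2 a WT day 15 peak and 3 a Hira-null day 15 peak. Of 3 neuron markers, 2 had a peak in each WT list and 0 in each Hira-null list.

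WT lists carried peaks at 6 of the 10 genes at day 0 and at 7 at day 15, Hira-null lists at 4 on each day. The WT day 0 list had 16 peaks in these windows, the WT day 15 list 18, the Hira-null day 0 list 6 and the Hira-null day 15 list 10. The order of the genotypes at day 15 turned when each list was held to its 7332 highest-scoring peaks, with 5 peaks at 3 genes in WT and 10 peaks at 4 genes in Hira-null cells. With a score of at least 100, both genotypes had 7 peaks at day 15. Over all protein-coding genes, 35.4% had a peak in the same window in WT day 0, 39.4% in WT day 15, 20.3% in Hira-null day 0 and 15.2% in Hira-null day 15. The share was thus above that of all genes in each list, and the windows of the 10 genes were longer, with a median of 38.5 kb against 28.4 kb. The median gene of the set had 1 peak in WT day 0, 2.5 in WT day 15 and 0 in both Hira-null lists, against 0 for all genes in each list.

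**Figure D1:**
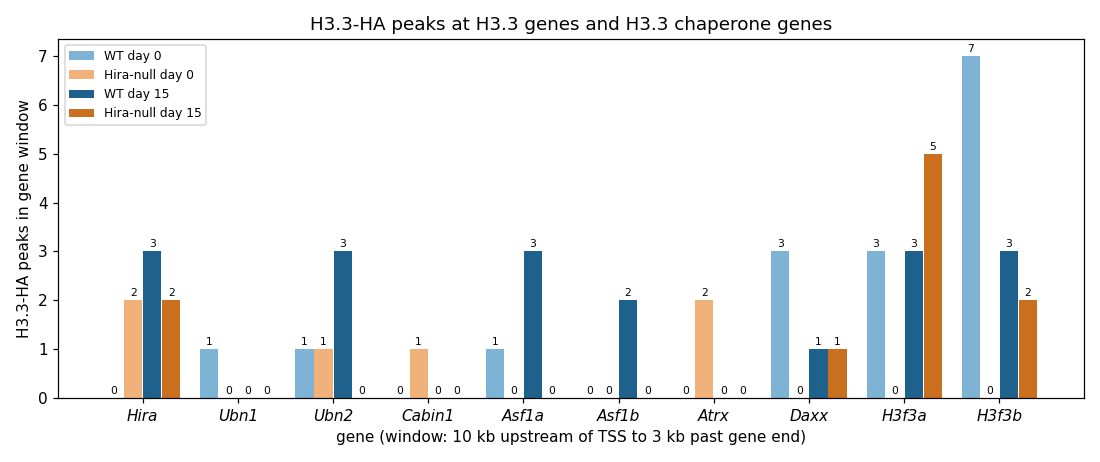
Number of H3.3-HA peaks (vertical axis) in the window of each of the 10 genes (horizontal axis), as 1 bar for each of the 4 conditions with the count above it. H3f3b has 7 peaks in WT and 0 in Hira-null cells at day 0, and H3f3a has 5 in Hira-null day 15.

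HIRA-dependent is used here for WT peaks that share not 1 bp with any peak called in Hira-null cells on that day, a name for a comparison of lists and not for a cause. At day 0 all 16 WT peaks, at 6 genes, were HIRA-dependent, and 31% of all genes had such a peak. The general share of HIRA-dependent peaks at day 0, over the windows of all genes, was 84.2% (a peak in several windows counted in each). At day 15, 14 of the 18 WT peaks were HIRA-dependent, at 7 genes, against 37.5% of all genes. The share of peaks was 77.8%, below the 91.7% over the windows of all genes. It was also lower in the lists described below, 74.4% for other histone chaperones and 82.6% for factors that act with H3.3. At day 0 these lists had 93.1% and 83.3%. At the 10 genes, the 4 WT day 15 peaks with a Hira-null counterpart lay at the H3.3 genes, 2 at H3f3a and 2 at H3f3b. In the reverse direction, all 6 Hira-null day 0 peaks, at 4 genes, had no WT peak, and 14.6% of all genes had such a peak. Over all windows 64.3% of Hira-null day 0 peaks had no WT peak. At day 15, 5 of the 10 Hira-null peaks, at 3 genes, had no WT peak, against 10.5% of all genes, and over all windows 56.6% of the peaks had none. With a score of at least 100 in all lists, 6 HIRA-dependent peaks were left at day 0 and 3 at day 15. With the 4 lists held to 7332 peaks each, 6 and 1 were left.

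H3f3b (ENSMUSG00000016559.8, chr11:115883226-115889276, minus strand) had the most WT day 0 peaks of the 10 genes. It had 7 peaks in WT and 0 in Hira-null cells at day 0, and 3 and 2 at day 15. The WT day 0 peaks covered 11.2 kb of the 19.1 kb window, or 58.7%, rank 14 of the 7911 genes that had any peak in that list. The covered share was 25.8% in WT and 20.7% in Hira-null cells at day 15, and in Hira-null day 0 the nearest peak lay 257 kb outside the window. The H3f3b gene thus ranked high in the WT day 0 list and was empty in the Hira-null day 0 list. H3f3b lies on chromosome 11, and the part of the high WT peak density of that chromosome in the count was not tested.

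A peak lay over the end of H3f3b in all 3 lists that had any, and in both day 15 lists it was the strongest of the gene. In WT day 15 the peak chr11:115882386-115884445 scored 565.41, and 1.01% of that list scored higher. The Hira-null day 15 peak over the same sequence, chr11:115881154-115884422, scored 715.14, with 3.23% of its list higher. In WT day 0 the gene end lay under chr11:115882508-115884433, with a score of 186.94 and 8.88% of the list higher. The 3' UTR of 1498 bp was 81.4% covered by this peak in WT and 79.9% in Hira-null cells at day 15. At day 0 in WT it was 94% covered, by the gene-end peak and the next peak inwards together. A further peak past the gene end was present in the same 3 lists, scoring 188.17 in WT day 0, 270.46 in WT and 56.15 in Hira-null cells at day 15.

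The front part of H3f3b carried peaks in WT only. All 408 coding bases (stop codon not counted) lay under the WT day 0 peak chr11:115884524-115885545, which scored 61.57, and 0 coding bases lay under a peak in the other lists. A WT day 0 peak that began 1.91 kb from the TSS and a WT day 15 peak that began 2.49 kb from it overlapped each other, over noncoding exon and intron sequence. Upstream, where distances from the TSS are negative, 3 peaks were counted in the window, all from WT day 0, with nearest edges at -0.509, -2.27 and -9.24 kb. The second of these touched Unk, a neighbouring gene on the opposite strand that encodes a zinc finger RNA-binding protein, and so did the third. Both could thus belong to either gene, and the first lay within 3 kb of Unk. The third ran past the edge of the window and was overlapped there by a WT day 15 peak that lay wholly outside it. With a score of at least 100, H3f3b kept 3 WT day 0 peaks and 0 HIRA-dependent day 15 peaks. The 3 were the gene-end peak, the peak past it and the third upstream peak (score 110.61). The remaining front and upstream peaks, of both WT days, scored from 50.57 to 97.6 and fell below this limit.

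H3f3a (ENSMUSG00000060743.6, chr1:182730963-182744074, minus strand) had 3 peaks in WT and 0 in Hira-null cells at day 0, and 3 and 5 at day 15. With peaks under 1 kb apart merged, the day 15 order turned, to 3 in WT and 1 in Hira-null cells, so the count of 5 is one of adjoining peaks. The Hira-null day 15 peaks covered 9.74 kb, or 37.3% of the window, rank 39 of the 3400 genes that had any peak there. The share was 20% in WT day 0 and 19.8% in WT day 15. In Hira-null day 0 the nearest peak lay 100 kb outside the window. H3f3a, like H3f3b, had no peak in Hira-null day 0 and did in Hira-null day 15.

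As at H3f3b, the highest scores of the gene in the day 15 lists were at its end. The Hira-null day 15 peak chr1:182729579-182733889 was 4311 bp wide and scored 1087.65, with 1.76% of its list higher. This was the highest raw score of all peaks at the 10 genes. In WT day 15 the peak chr1:182730972-182733007 scored 391.36, with 2.45% of its list higher. In WT day 0 the peak there scored 146.5, with 15.9% higher. The WT peaks stopped 9 bp (day 15) and 34 bp (day 0) short of the annotated end and the Hira-null peak ran past it. The 3' UTR of 2248 bp was covered to 81.8% in WT day 0, 90.6% in WT and 100% in Hira-null cells at day 15. Hira-null day 15 also had a peak past the end without a WT counterpart, chr1:182727004-182729488, with a score of 554.36. The last intron carried peaks in the same 3 lists, scoring 159.83 in WT day 0, 299.03 in WT day 15 and up to 283.25 in Hira-null day 15.

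The other H3f3a peaks were weaker and each was found in a single list. WT day 0 had an upstream peak with its nearest edge at -0.405 kb from the TSS (score 76.01), and WT day 15 a peak over the first coding exon (score 64.53). Both were HIRA-dependent. Hira-null day 15 had a further peak in the last intron, with a score of 65.39.

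**Figure D2:**
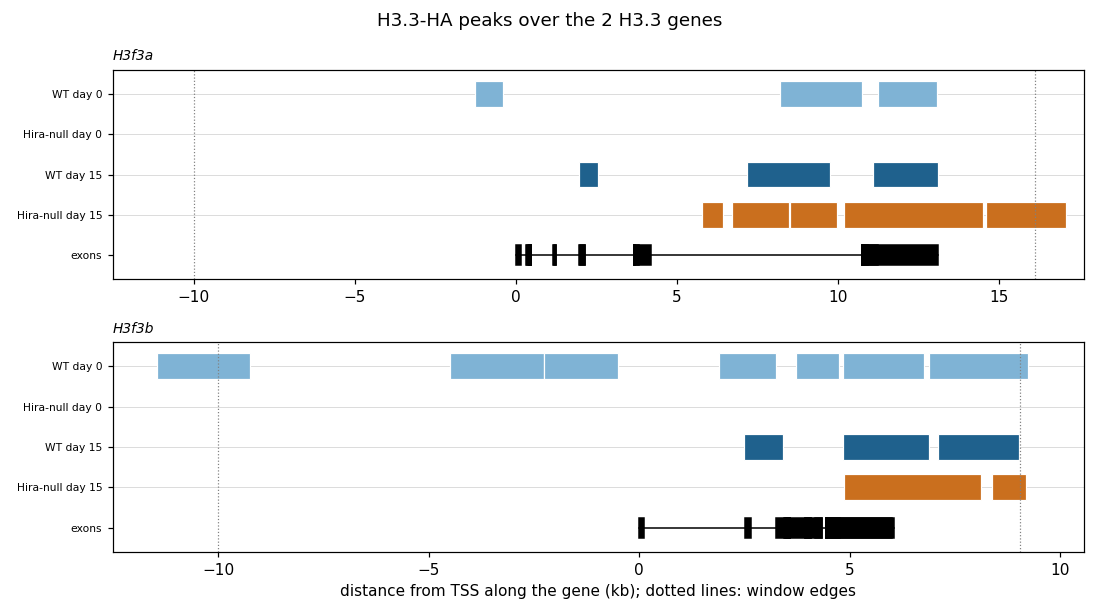
Boxes mark H3.3-HA peaks at H3f3a and H3f3b, with 1 row per condition, by distance from the TSS in kb along the gene, above the exons of all annotated transcripts. The 3 conditions with peaks share them at or close to the gene end. The peaks upstream of the TSS in the window are from WT day 0, and the Hira-null day 0 row is empty at both genes.

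The upstream peaks of the H3.3 genes are shown by the 300 bases at their centres, on the gene's strand of mm9, because they are the WT day 0 peaks nearest to the TSS of both genes. H3f3a is read from chr1:182744755-182745054 and H3f3b from chr11:115890508-115890807, and capitals mark CG dinucleotides.
H3f3a: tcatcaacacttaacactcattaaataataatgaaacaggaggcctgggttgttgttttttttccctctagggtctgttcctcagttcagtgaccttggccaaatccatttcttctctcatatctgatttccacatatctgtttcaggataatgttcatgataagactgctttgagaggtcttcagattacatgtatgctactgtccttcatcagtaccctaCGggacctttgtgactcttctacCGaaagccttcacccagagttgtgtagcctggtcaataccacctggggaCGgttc
H3f3b: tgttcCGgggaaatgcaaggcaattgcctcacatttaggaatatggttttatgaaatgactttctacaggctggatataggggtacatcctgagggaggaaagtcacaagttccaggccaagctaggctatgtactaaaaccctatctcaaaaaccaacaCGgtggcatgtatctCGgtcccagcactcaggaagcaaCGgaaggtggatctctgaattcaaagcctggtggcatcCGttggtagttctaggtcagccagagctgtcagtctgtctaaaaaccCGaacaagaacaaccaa
The H3f3a stretch held 3 CG dinucleotides and the H3f3b stretch 6. Over the whole of the peaks shown, the ratio of observed to expected CG was 0.28 at H3f3a and 0.267 at H3f3b. The median for the peaks of that list was 0.216. The upstream H3f3b peaks farther out had ratios of 0.548 and 0.277. The H3f3b peak over the coding exons had the highest ratio of all peaks at the 10 genes, 0.715, with 57% G and C.

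The coding sequences of H3f3a and H3f3b differ at 95 of 411 bases and are 76.9% identical. Their first 180 bases are shown to compare the genes with each other, with the 40 differing bases in capitals.
H3f3a: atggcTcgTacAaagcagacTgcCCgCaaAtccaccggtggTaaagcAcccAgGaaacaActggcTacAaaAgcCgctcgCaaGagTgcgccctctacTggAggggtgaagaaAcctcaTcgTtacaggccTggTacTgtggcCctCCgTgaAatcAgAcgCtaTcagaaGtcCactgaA
H3f3b: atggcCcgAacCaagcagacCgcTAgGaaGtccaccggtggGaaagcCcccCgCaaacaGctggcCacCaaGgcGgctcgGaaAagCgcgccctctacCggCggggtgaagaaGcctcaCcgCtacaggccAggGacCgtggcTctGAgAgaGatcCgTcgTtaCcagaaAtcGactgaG
Of 54 unspliced copies of the H3.3 coding sequence found in mm9, 51 were closer to H3f3a than to H3f3b. Most of the H3f3a coding sequence was not unique in the genome. Of the 31-base words in its coding exons, 0.943% occur once in mm9, against 35.2% for H3f3b. In the 3' UTR the share was 78.2% at H3f3a and 67.2% at H3f3b. The WT peaks covered 2 coding bases of H3f3a at day 0 and 128 at day 15. The Hira-null peaks covered 0 and 126, the latter under the peak across the gene end. How the alignment treated reads with several matches is not given in the sources used here. A lack of peaks over the other H3f3a coding bases is thus uncertain. The same holds for the H3f3b coding bases in the lists other than WT day 0.

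Hira (ENSMUSG00000022702.9, chr16:18877130-18970402, plus strand), which encodes the protein missing from Clone 104, had no peak in common between the genotypes. It had 0 peaks in WT and 2 in Hira-null cells at day 0, and 3 and 2 at day 15. The Hira-null lists of both days marked the same place, beginning 31.5 kb from the TSS. At day 0 this was a single peak, chr16:18908618-18913255, 4638 bp wide, with a score of 337.41 and 13.3% of the list higher. At day 15 a pair of peaks, chr16:18908710-18910221 and chr16:18910611-18912172, lay within it and scored 164.45 and 145.84. No WT list had a peak there, and the nearest WT peak of either day was 14.2 kb away.

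Exons 6 and 7 of the 25 exons of the transcript Hira-001 lay inside the day 0 peak. At day 15 exon 6 was fully covered and exon 7 to 21.1%. The exons are shown with 20 bases of intron on each side, exons in capitals, since they are the part of Hira that Hira-null lists mark at both days. Exon 6 is read from chr16:18910721-18910856 and exon 7 from chr16:18912119-18912319, plus strand of mm9.
Hira exon 6: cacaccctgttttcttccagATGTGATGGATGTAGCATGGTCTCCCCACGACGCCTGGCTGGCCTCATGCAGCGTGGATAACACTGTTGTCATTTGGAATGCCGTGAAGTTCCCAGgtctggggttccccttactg
Hira exon 7: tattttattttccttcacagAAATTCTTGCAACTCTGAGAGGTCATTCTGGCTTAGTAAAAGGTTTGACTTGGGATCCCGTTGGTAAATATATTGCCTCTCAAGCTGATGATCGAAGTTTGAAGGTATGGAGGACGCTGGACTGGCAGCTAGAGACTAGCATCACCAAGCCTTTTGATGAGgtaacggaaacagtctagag
In the day 0 peak 97.2% of the 31-base words occur once in mm9, so it lies on mostly unique sequence. Of the 17706 Hira-null day 0 peaks, 756 (4.27%) were overlapped by a Hira-null day 15 peak and by no WT peak, and 5 of these, the Hira peak included, were at least 4638 bp wide. Both Hira-null lists come from the same clone and share the altered allele. The part of that allele in these peaks was not tested.

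The other Hira peaks were each found in a single list. WT day 15 had a peak over the gene end, chr16:18970222-18971516, with a score of 111.75. It also had an intron peak (score 55.57) and a peak in the neighbouring gene Mrpl40, which encodes a mitochondrial ribosomal protein, with its nearest edge at -3.89 kb from the Hira TSS (score 79.35). Hira-null day 0 had a peak at -6.56 kb, within 3 kb of Mrpl40, with a score of 171.79. With the lists held to equal length, Hira kept 2 Hira-null day 0 and 2 Hira-null day 15 peaks and 0 WT peaks.

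Ubn1 and Ubn2 encode the ubinuclein subunits, which bind H3.3-H4 beside HIRA, and their peaks were few. Ubn1 (ENSMUSG00000039473.6, chr16:5050161-5086378, plus strand) had 1 peak in WT day 0 and 0 in the other lists. This peak, chr16:5050758-5051673, began 0.597 kb past the TSS, across the end of the first exon, and scored 72.41. It also lay within 3 kb of the neighbouring gene Glyr1. Ubn2 (ENSMUSG00000038538.10, chr6:38383925-38474825, plus strand) had 1 peak in WT and 1 in Hira-null cells at day 0, and 3 and 0 at day 15. A single place was shared between WT days, under chr6:38430986-38431882 at day 0 (score 71.06) and chr6:38430805-38432281 at day 15 (score 196.43, with 11.3% of the list higher). They began 47.1 and 46.9 kb into the gene and touched the same coding exon. The remaining Ubn2 peaks scored from 50 to 53.44, close to the lowest score of 50 in each list.

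The Ubn2 exon is shown with 90 bases of intron on each side, exon in capitals, as the only place in a gene of the HIRA complex with a WT peak at both days. It is read from chr6:38431714-38432012, plus strand of mm9.
Ubn2: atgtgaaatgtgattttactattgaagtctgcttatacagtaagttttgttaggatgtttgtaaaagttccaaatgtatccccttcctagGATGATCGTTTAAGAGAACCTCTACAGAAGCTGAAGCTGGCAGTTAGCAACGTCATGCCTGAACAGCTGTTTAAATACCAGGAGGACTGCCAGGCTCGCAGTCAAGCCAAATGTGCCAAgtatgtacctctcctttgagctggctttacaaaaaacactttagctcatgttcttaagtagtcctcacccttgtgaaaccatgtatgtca
Of the 31-base words in the WT day 15 peak, 94% occur once in mm9.

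Cabin1 (ENSMUSG00000020196.8, chr10:75108855-75227102, minus strand), the largest subunit of the complex, had 1 peak in Hira-null day 0 and 0 in the other lists. It lay in an intron, chr10:75152816-75153968, and scored 104.05, below the median of its list (122). WT lists had no peak within the Cabin1 window, the nearest lying 6.06 kb outside it at day 0 and 61.8 kb at day 15. Of the 31-base words in the Hira-null peak 68% occur once in mm9.

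The ASF1 paralogues, which carry H3-H4 dimers to the placing chaperones, had peaks in WT lists only. Asf1a (ENSMUSG00000019857.6, chr10:53316767-53329019, plus strand) had 1 peak in WT cells at day 0, 3 at day 15, and 0 in both Hira-null lists, whose nearest peaks were 87.5 and 88.2 kb outside the window. The 3 day 15 peaks lay in the back part of the gene and scored 105.99, 74.3 and 68.82, and the day 0 peak between them scored 70.51. Asf1a lies inside Mcm9, which encodes a helicase and runs on the opposite strand, so each of the 4 peaks also touched Mcm9 and cannot be given to either gene. All 4 lay on sequence whose 31-base words occur once in mm9. Asf1b (ENSMUSG00000005470.8, chr8:86479406-86494096, plus strand), the paralogue linked to dividing cells, had 2 peaks in WT day 15 and 0 in the other lists. One lay in an intron (score 82.52) and one 0.513 kb past the gene end, within 3 kb of Prkaca (score 70.46). WT day 15 peaks were 2.56 times as dense on chromosome 8 as on the other autosomes, and the part of that in the Asf1b peaks was not tested.

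Atrx and Daxx act in the other H3.3 route. Atrx (ENSMUSG00000031229.9, chrX:102992954-103124736, minus strand) had 2 peaks in Hira-null day 0 and 0 in the other lists. Their nearest edges were at -5.68 and 5.59 kb from the TSS. They scored 58.48 and 59.95, and 90% and 88.4% of the list scored higher. The nearest WT peaks were 2510 kb away at day 0 and 3610 kb at day 15. The X chromosome as a whole had 157 WT day 0 and 24 WT day 15 peaks, so a lack of WT peaks at Atrx cannot be told apart from the low density of the chromosome. Daxx (ENSMUSG00000002307.9, chr17:34046359-34052534, plus strand) had 3 peaks in WT and 0 in Hira-null cells at day 0, and 1 and 1 at day 15. The WT day 0 peaks all lay upstream, with nearest edges at -9.05, -6.99 and -5.23 kb from the TSS and scores of 110, 64.06 and 68.22. The WT day 15 peak at -6.9 kb (score 93.92) overlapped the second of them. The first ran past the window edge, where a WT day 15 peak outside the window overlapped it. The Hira-null day 15 peak, 449 bp wide, lay over the gene end with a score of 55.23, within 3 kb of Tapbp and Zbtb22. Tapbp encodes the antigen-loading factor tapasin.

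**Figure D3:**
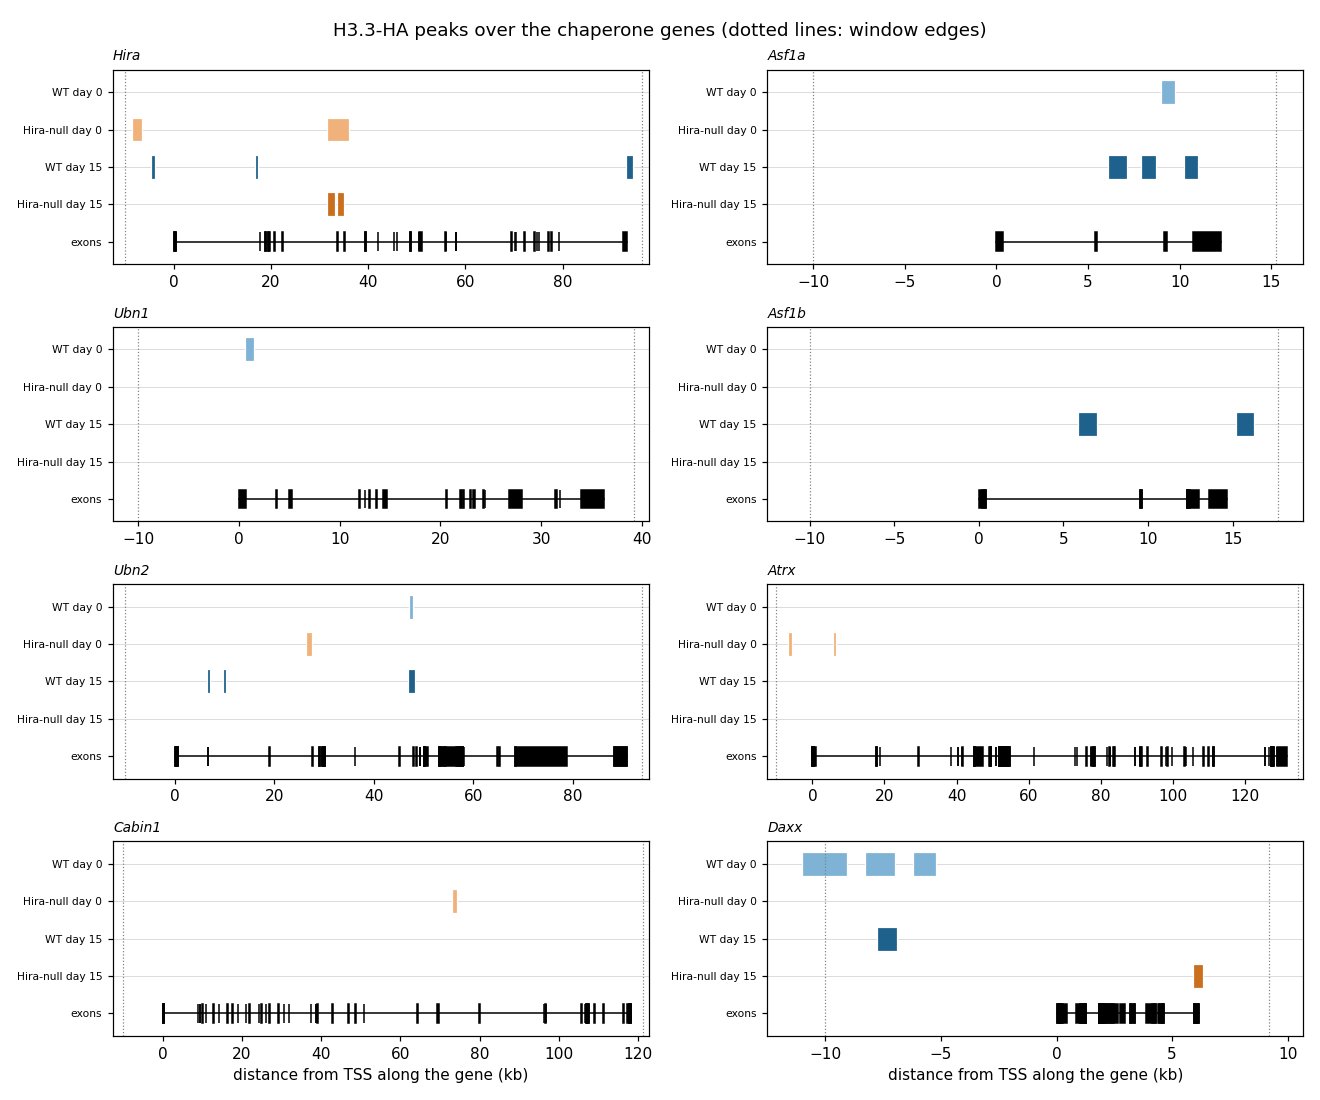
Boxes mark H3.3-HA peaks at the 8 chaperone genes, with 1 row per condition, by distance from the TSS in kb along the gene, above the exons of all annotated transcripts. Hira carries the same Hira-null block at both days, 31.5 kb from the TSS and on, with no WT box, and Asf1a and Asf1b carry WT boxes only.

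Joined over the 4 lists, the 50 peaks formed 34 separate places. Of these, 28 had a peak in 1 list, 4 in 2 lists, 2 in 3 lists and 0 in all 4. Peaks outside the windows are not counted in this. The 2 places found in 3 lists were at H3f3a and H3f3b, in both cases without Hira-null day 0. At H3f3a the place ran from the last intron to past the gene end (7 peaks over 7.8 kb), and only the Hira-null peak crossed that end. At H3f3b it spanned the gene end (6 peaks over 4.4 kb). WT days shared 3 further places, at Ubn2, Daxx and H3f3b, and Hira-null days shared the Hira place. Within the windows, 23 places had a WT peak of either day and no Hira-null peak. Places were not counted over the windows of all genes, so these numbers have no general share beside them. The WT lists also held more peaks than the Hira-null lists at both days.

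By position, no peak of any list lay over the TSS of a member, and over all genes 2.28% had a peak over the TSS in WT day 0 and 2.43% in WT day 15. A peak lay over the gene end of 1 member in WT day 0, 0 in Hira-null day 0, 2 in WT and 3 in Hira-null cells at day 15. Among all genes these shares were 3.52%, 1.21%, 5.97% and 1.86%. The 3 members in Hira-null day 15 were Daxx, H3f3a and H3f3b. Only 3 peaks came within 1 kb of a TSS, at Ubn1, H3f3a and H3f3b, and all were from WT day 0. Over all genes, 8.56% had a peak within 1 kb of the TSS in WT and 1.28% in Hira-null cells at day 0, and 12.6% and 0.921% at day 15.

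Scores of the members' peaks were ranked within their lists, lowest in Hira-null day 0 and highest in Hira-null day 15. The median percentile was 51.9 in WT and 27.1 in Hira-null cells at day 0, and 44.1 and 76.9 at day 15. H3f3a and H3f3b held 7 of the 10 peaks of the last list, and the median of the remaining 3, at Hira and Daxx, was 71.1. Median peak width was 1540.5 bp in WT day 0 against 1045 bp in the whole list, and 1537 bp in Hira-null day 15 against 775 bp. It was 957 bp against 952 bp in WT day 15 and 1172.5 bp against 1514 bp in Hira-null day 0. The content of G and C ran from 33.7% to 57%, with medians of 40.7% to 44.3% by list, against 42.1% to 45% in the whole lists.

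**Figure D4:**
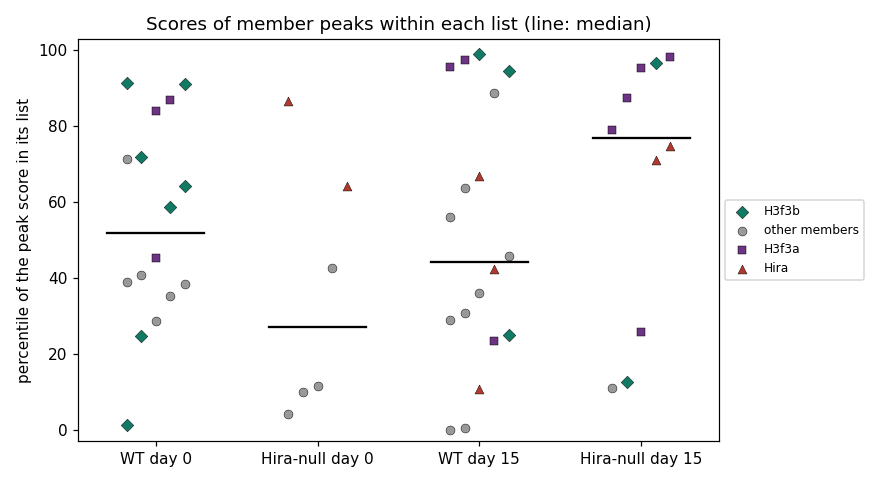
Percentile of each member peak's score within its own list (vertical axis), for the 4 conditions, with H3f3a, H3f3b and Hira set apart by symbol and the median as a line. H3f3a and H3f3b peaks reach 98.2 and 96.8 in Hira-null day 15 and have no point in Hira-null day 0.

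By presence of a peak over the 4 lists, H3f3a, H3f3b and Daxx had the same pattern, with peaks in all lists but Hira-null day 0, and so had 885 genes apart from each of them (3.96%). The pattern of Hira, with peaks in all lists but WT day 0, was found in 168 other genes (0.751%). Asf1a shared WT peaks at both days with 2576 other genes (11.5%), Asf1b its WT day 15 peak with 2536, and Ubn1 its WT day 0 peak with 1298. Cabin1 and Atrx, with Hira-null day 0 peaks only, shared that pattern with 892 other genes each.

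Other histone chaperones give a frame for these counts. Of 16 such genes, 11 (68.8%) had a WT day 0 peak, 12 (75%) a WT day 15 peak, 3 (18.8%) a Hira-null day 0 peak and 8 (50%) a Hira-null day 15 peak. The median per gene was 1 peak in WT day 0 and 2.5 in WT day 15. Nasp, a chaperone of soluble H3-H4, had 7 peaks in WT and 0 in Hira-null cells at day 0, and 7 and 2 at day 15. Nap1l1, an H2A-H2B chaperone, had 6, 0, 6 and 2 in the same order. Supt16h, a subunit of FACT, had 4, 0, 3 and 0, while Ssrp1, its partner in FACT, had 0 in each list. The large subunits of the replication-coupled chaperone CAF-1 had 1 peak each, Chaf1a in WT day 0 and Chaf1b in Hira-null day 15. Some genes of the list had as many or more peaks in Hira-null cells on a day. In the same order, Rbbp4 had 1, 3, 6 and 4, Set 2, 0, 4 and 4, and Npm3 2, 0, 3 and 3. Rbbp7 had 0, 0, 0 and 3, and Hjurp 0, 2, 2 and 0.

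Of 13 factors that act with H3.3, 10 (76.9%) had a WT day 0 peak, 11 (84.6%) a WT day 15 peak, 5 (38.5%) a Hira-null day 0 peak and 7 (53.8%) a Hira-null day 15 peak. Chd2, a remodeler that takes part in H3.3 placement, had 12 peaks in WT and 1 in Hira-null cells at day 0, and 21 and 6 at day 15. Cbx5, a heterochromatin protein gene, had 9, 1, 15 and 4 in the same order, and its paralogue Cbx3 had 5, 2, 6 and 6. Setd2, the H3K36 methyltransferase, had 2 peaks in WT day 0 and 14 in WT day 15. Trim28, a corepressor that silences retroelements, had 5, 1, 3 and 2. Windows of this list were longer, with a median of 61.3 kb, and the part of length in its counts was not tested.

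**Figure D5:**
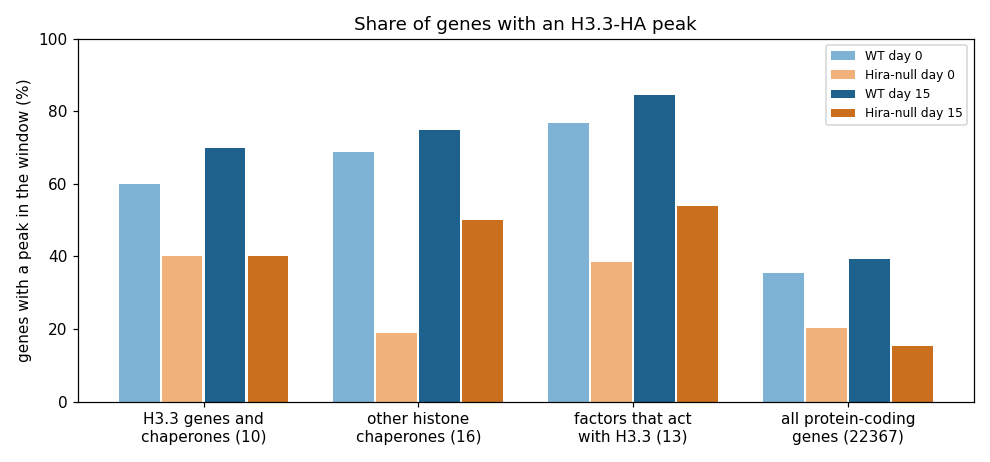
Share of genes with an H3.3-HA peak in the window, in percent, for the 10 H3.3 and chaperone genes, 16 other histone chaperones, 13 factors that act with H3.3 and all 22367 protein-coding genes, as 1 bar for each condition. The 10 genes are at 60% and 70% in WT day 0 and day 15 and at 40% in both Hira-null lists.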

How the data were processed

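H3.3-HA ChIP-seq peak lists of 4 conditions were used. According to the paper's methods and the submitters' processing notes, the authors aligned paired-end reads to mm9 with Bowtie, removed duplicates with Samtools and called peaks with MACS 1.4.2 at default parameters. The deposited values are a position and a score per peak. MACS writes such a score as -10 times the log10 of a p-value. Since it grows with depth, percentiles were taken within a list. The score limit of 100 and raw scores set side by side across lists make no allowance for depth. That limit kept 34.3% of WT day 0, 59.3% of Hira-null day 0, 39.9% of WT day 15 and 45% of Hira-null day 15 peaks. The 4 lists were taken as those of the 4 ChIP libraries. The use of the 4 input libraries in peak calling is not given in the sources used here.

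Genes came from GENCODE M1 (mm9), and 0 peaks passed a chromosome end. A peak was counted for a gene when it touched the window by 1 bp, from 10 kb upstream of the TSS to 3 kb past the gene end. Percentages over all genes use the same window. Overlap was computed in Python 3.11.15 (numpy 2.4.6, pandas 2.3.3) and checked against bedtools 2.31.1, with 0 WT peaks counted differently, and was tested on simulated data. Words of 31 bases were counted on both strands of the mm9 sequence, and copies of the H3.3 coding sequence were sought with blastn 2.17.0. No p-values were computed, with 1 library per condition.

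The 10 genes, the further lists and the alternatives were chosen with earlier results of these data known. All 10 genes are named with every place they have, and neighbouring genes where a peak touched or came within 3 kb of them. Map2 was not found under this name and was left out of the marker lists. No protein sequence was used here.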

Additional observations from a re-analysis of the deposited data

Results flagged for a closer look

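The change in the number of peaks from day 0 to day 15 went in opposite directions in the genotypes at 3 of the 10 genes. At H3f3b it was -4 in WT, from 7 to 3 peaks, and 2 in Hira-null cells, from 0 to 2. At Daxx it was -2 in WT, from 3 to 1, and 1 in Hira-null cells, from 0 to 1. At Ubn2 it was 2 in WT, from 1 to 3, and -1 in Hira-null cells, from 1 to 0. Each value rests on 1 library per condition, and the difference between genotypes was not tested. Opposite changes were not counted over all protein-coding genes, so 3 of 10 cannot be set against a general share. At Ubn2, 2 of the 3 WT day 15 peaks and the Hira-null day 0 peak scored 50, 50.17 and 53.44, at or near the lowest score of 50. At Daxx and H3f3b, 1 WT day 0 peak each was overlapped by a WT day 15 peak just outside the window, which the counts leave out. The opposite directions ended at Daxx in the gene body alone (0 and 0 WT peaks), with peaks under 1 kb apart merged (1 and 1) and with a score of at least 100 (0 and 0 Hira-null peaks). They ended at Ubn2 when the lists were held to equal length and under the same score limit (0 and 0 Hira-null peaks in both). At H3f3b they held under each alternative that kept the gene.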

How the results depend on the processing

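No paired analysis was possible because each condition had 1 ChIP library. Of 92 recomputed counts, 66 were within 1.5 times the reported count and 26 were lower. With a score of at least 100, WT day 0 had 6 peaks at 3 genes, all HIRA-dependent, Hira-null day 0 had 3 peaks at 2 genes, WT and Hira-null day 15 had 7 peaks each, and HIRA-dependent day 15 peaks came to 3 at 3 genes. With lists of equal length, WT day 0 had 6 peaks at 3 genes, all HIRA-dependent, Hira-null day 0 had 2 peaks at 1 gene, WT day 15 had 5 peaks at 3 genes and Hira-null day 15 had 10 at 4 genes, which turns the order of the genotypes, and 1 HIRA-dependent day 15 peak was left, at Ubn2. In the gene body alone WT day 0 had 8 peaks, and with peaks under 1 kb apart merged 9, all HIRA-dependent in both cases, while merging left 4 peaks in Hira-null day 15, 1 of them at H3f3a, against 3 at H3f3a in WT day 15. Without the members on chromosomes 8 and 11, WT day 0 had 9 peaks, again all HIRA-dependent. By construction the score and length settings keep fewer peaks. An overlap of at least 50% and Hira-null peaks widened by 1 kb gave the same HIRA-dependent counts as reported. Read depth is unknown, so the share of the difference between lists that depth accounts for was not tested.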

Other observations

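Unspliced copies of the H3.3 coding sequence were searched for in mm9. At least 80% of the coding length was found at an identity of at least 85% at 54 places, with identities from 86.1% to 99.3%, and 51 of them were closer to H3f3a than to H3f3b. A peak touched 1 of the 54 in WT day 15 and 0 in each of the other lists.

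Peaks at Atrx and Cabin1, all from Hira-null day 0, lay on sequence that is repeated in part. Of their 31-base words, 65% to 68% were found once in mm9. The windows as a whole had 91.9% at Atrx and 96.7% at Cabin1. WT day 0 peaks reached as low, with 61.6% in the H3f3b peak over the coding exons and 65.7% in the outermost Daxx peak, and the peaks past the end of H3f3b had 70.7% to 75.4%.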
